A study of Mus musculus with 2 samples.

Results

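The p53 and DNA damage response genes described here are 34 genes listed by name: the tumour suppressor gene Trp53, regulators of its protein, and genes that p53 is known to switch on or that act in the same response. A column was found for 33 of the 34 among the 16184 genes of the tables, and Ddb2 is not analysed here. The cells were live CD45+ leukocytes sorted from lungs of Scgb1a1cre/iDTR mice, in which Cre is driven by the club cell promoter Scgb1a1 and, after tamoxifen, makes those cells sensitive to diphtheria toxin (DT). Every mouse had received 150000 HKP1 cells, a mouse lung tumour line, through the tail vein in 100 µL. All mice were given tamoxifen (2 mg per 20 g, 5 days, day 3 to 7), anti–PD-1 antibody (250 µg on day 6) and radiation of 4 Gy on each of 3 days (day 10 to 12). The DT group was given 2 doses of 600 ng DT per 20 g (day 8 and 9), and per the design text the control group was given PBS. The treatment text of the sample records is the same for both libraries and names DT for all mice, so the grouping rests on the sample titles and the design text. Harvest is labelled 24 to 48 hours after radiation. Both groups were irradiated, and an unirradiated group is not analysed here, so the values below compare DT with PBS among irradiated mice and cell populations with each other, and give no response to radiation itself.

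Each group was 1 droplet library of the RNA of single cells, with 4 mice per group in the design text and no record here of which cell came from which mouse. There was therefore no test between the groups, and no p is given. Intervals in brackets are exact 95% intervals that cover counting error only: Poisson for levels, conditional binomial for ratios of 2 levels, Clopper-Pearson for shares of cells. The PBS library held 5702 cells and 31089434 UMIs (unique molecular identifiers, each standing for 1 captured RNA molecule), and the DT library 6203 cells and 27896059 UMIs, with a median of 3719 and 2909 UMIs per cell. In all, 8 cell barcodes occurred in both libraries. Cells were gated by detection of 9 marker rules, and a cell that passed gates of several lineages was left out. This left 130 PBS and 126 DT cells with Foxp3, 303 and 303 with Cd4 without Foxp3, 365 and 357 with Cd8b1, 243 and 201 with Ncr1, 1388 and 1065 with Cd79a, 807 and 1196 with Csf3r and S100a8, 242 and 234 with Ly6c2 and Ccr2, 241 and 317 with C1qa, and 55 and 72 with Cd209a. The marker lists followed the gates: the summed neutrophil markers, for example, reached 63727 CPM (UMIs of a gene per 1000000 UMIs of the gate) in the Csf3r with S100a8 gate of PBS and at most 203 CPM in its other gates. The dendritic cell list separated its gate least, since Cd74 made up most of it: in PBS it summed to 29460 CPM in Cd209a cells, 20873 in C1qa cells and 19732 in Cd79a cells. In the Cd4 gate the dendritic list summed to 3341 CPM in PBS and 1334 in DT, the monocyte list to 744 and 370. The macrophage list there summed to 225 and 49.9 CPM, and the neutrophil list to 93.8 and 104. The part of this RNA in the Cd4 values was not tested. Epithelial markers, which leukocytes should lack, summed to 1256 CPM in the Csf3r with S100a8 gate of PBS and 1083 CPM in the Cd79a gate of DT, and to at most 82.8 CPM in every other gate of either library. The sexes were also mixed unequally. Cells called male (a Y-linked gene was detected, Xist was not) made up 41.7% of the gated PBS cells and 17.6% of the gated DT cells, and cells called female (Xist was detected, no Y-linked gene was) 6.49% and 29.6%. Levels in male-called and female-called cells are given beside each member and gate past 1.5-fold and, for Cdkn1a, in further gates; the part of sex in the results was not tested.

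The p53 protein is a transcription factor that is normally kept low by the ubiquitin ligase MDM2. Breaks in DNA activate the kinase ATM, p53 is released from MDM2, and it binds response elements made of a pair of similar half-sites. Its targets halt the cell cycle, start apoptosis, repair DNA, adjust metabolism and, through Mdm2 and Ppm1d, switch p53 off again. Resting lymphocytes are known for dying readily after irradiation, while macrophages are known to be far more resistant.

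The element that p53 binds was looked for at the starts of the members. RefSeq promoter windows (GRCm38.p6, 250 bases before to 50 bases after a gene start) matched 25 of the 33 members. The windows were searched on both strands for the p53 response element, given here by its name alone: 2 half-sites of 10 bases with a gap of 0 to 13 bases, at most 1 mismatch in all, with the central C and G of each half-site kept. It was found in 3 of the 25 members (12%) and in 0.718% of all 27025 genes with a window. At least 1 exact half-site lay in 11 members (44%) and in 9.55% of all genes. The 3 members with an element are shown because their windows hold a match to this element, each with 20 bases on either side, on the strand of the gene, 5′ to 3′, with the half-sites in capitals.
Cdkn1a, chr17:29090886-29090957, plus strand, 0 mismatches, gap of 12 bases: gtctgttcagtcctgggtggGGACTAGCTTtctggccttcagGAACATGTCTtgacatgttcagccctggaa
Ccng1, chr11:40755442-40755501, minus strand, 1 mismatch, gap of 0 bases: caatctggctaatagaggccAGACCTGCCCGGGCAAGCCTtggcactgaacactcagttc
Rps27l, chr9:66946276-66946335, plus strand, 1 mismatch, gap of 0 bases: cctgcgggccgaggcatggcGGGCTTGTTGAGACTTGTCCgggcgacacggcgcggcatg
For each gene the match with the fewest mismatches is shown. In Cdkn1a the 10 bases right after the second marked half-site, left in small letters, are also a half-site, with 1 mismatch. With the second marked half-site they make another match to the rule, with a gap of 0 bases and 1 mismatch. The first base of the Cdkn1a element shown lay at position -73 from the RefSeq start of its window, that of Ccng1 at -195 and that of Rps27l at -117. The GENCODE start of Rps27l, base 66946086 of chromosome 9, lies upstream of its element. A match of letters is a description and no measurement of binding, and elements outside the windows were not searched.

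Members were found at very different levels in the 9 populations. Of the 33 members, 32 had at least 50 UMIs over all gates and both libraries. The exception was Eda2r, the ectodysplasin A2 receptor, with 8 UMIs. In 19 of the 32 the gate with the highest level was the same in both libraries. Likewise 19 members had at least 4 times the level in their highest gate that they had in their lowest, in both libraries. The Csf3r with S100a8 gate was the highest in both libraries for 7 members, the Foxp3 gate for 4, the C1qa gate for 3, the Cd8b1 gate for 2, and the Cd4, Cd79a and Cd209a gates for 1 each. Such counts were not made over all genes, so they describe these members only. Some first places were close. In PBS Zmat3 was at 26.5 CPM [15.7 to 41.9] in Foxp3 cells, from 18 UMIs, and 25.3 CPM in Cd4 cells. Ercc5 was at 25.1 CPM [14.6 to 40.1], from 17 UMIs, and 19.8 CPM in the same gates.

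**Figure D1:**
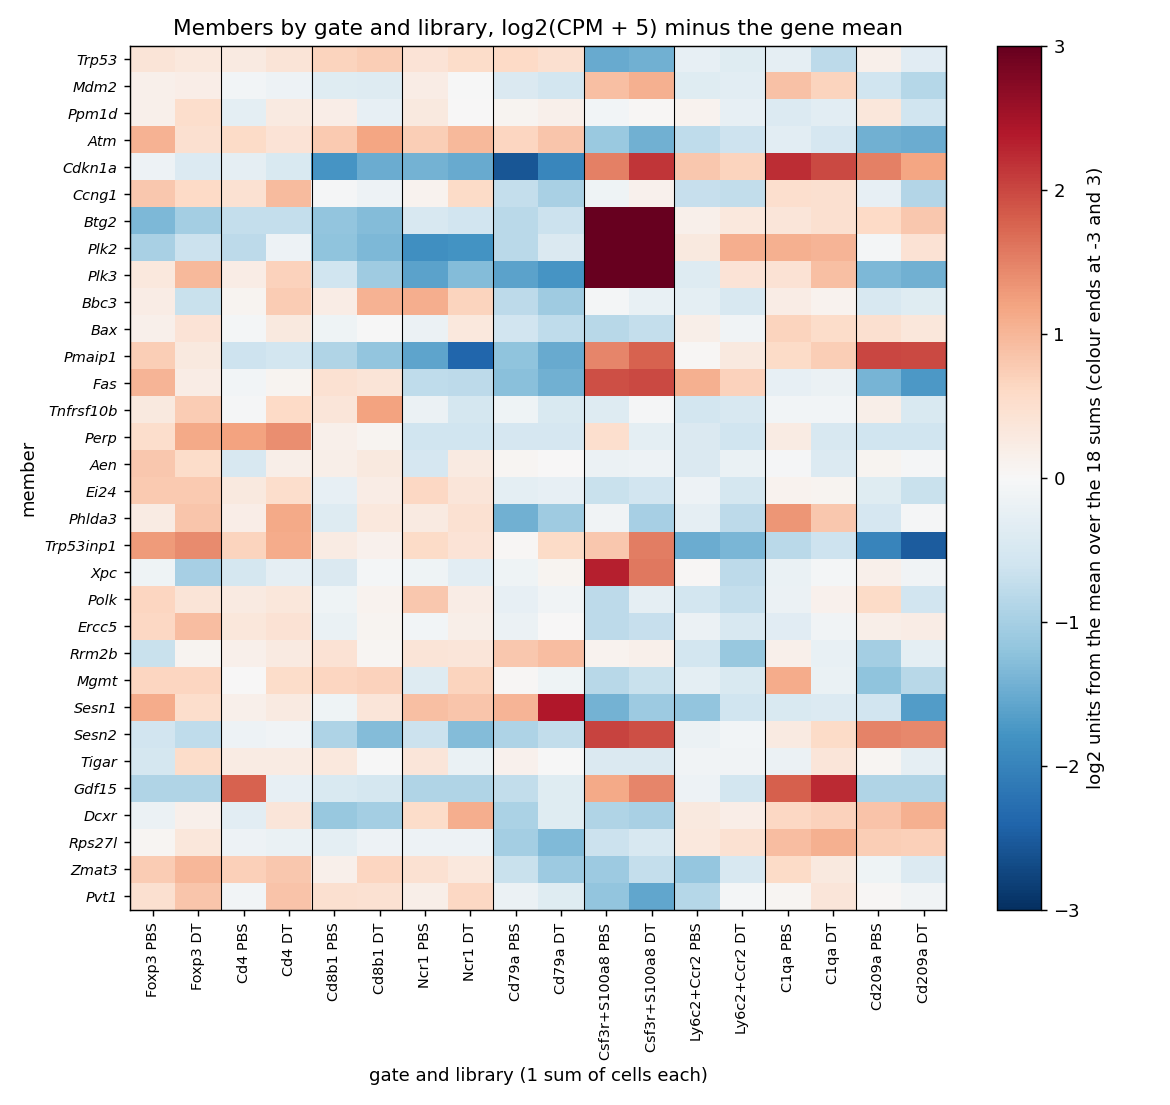
Levels of the 32 members with at least 50 UMIs in the 9 gates of the PBS and DT libraries, as log2(CPM + 5) minus the gene's mean over the 18 sums, with colours ending at -3 and 3. Btg2, Plk2 and Plk3 stand out in the Csf3r with S100a8 gate of both libraries, and Sesn1 in the Cd79a gate of DT.

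Among p53 and its regulators, Trp53 itself was highest in lymphocytes and lowest in the Csf3r with S100a8 cells. Its PBS level was 151 CPM in the Cd8b1 gate, 144 in Cd79a, 126 in Ncr1, 124 in Foxp3, 114 in Cd4, 105 in Cd209a, 77.9 in Ly6c2 with Ccr2, 76.2 in C1qa and 29.5 in Csf3r with S100a8. The DT levels in that order were 158, 131, 140, 118, 123, 73.4, 71.1, 52.1 and 31.2 CPM. The intervals of the 2 highest PBS gates overlapped (135 to 168 and 134 to 155 CPM), and that of the Csf3r with S100a8 gate (23.3 to 36.8 CPM) overlapped with no other. Mdm2, which encodes the ligase that removes p53 and is itself a p53 target, had another order. It was highest in the Csf3r with S100a8 gate, at 108 (PBS) and 121 CPM (DT), followed by C1qa at 106 and 90.8 CPM with an overlapping interval in PBS, and lowest in Cd209a at 34.5 and 28.4 CPM. Atm, the kinase that signals DNA breaks, was a lymphocyte transcript: it stood between 19.2 and 36.4 CPM in the 5 lymphocyte gates of both libraries and between 1.497 and 9.58 CPM in the other 4 gates. Ppm1d, a phosphatase that ends damage signalling, spanned 14.1 to 27.6 CPM over the PBS gates and 12.0 to 32.0 CPM over the DT gates.

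The cell cycle arrest genes were mainly myeloid. Cdkn1a, which encodes the cyclin-dependent kinase inhibitor p21 and is the best known p53 target, had PBS levels of 754 CPM in C1qa, 462 in Csf3r with S100a8, 460 in Cd209a, 279 in Ly6c2 with Ccr2, 141 in Foxp3, 131 in Cd4, 55.5 in Ncr1, 42.6 in Cd8b1 and 22.4 in Cd79a. The DT levels in the same order were 633, 716, 362, 252, 116, 113, 52.3, 52.7 and 36.7 CPM. In PBS the neighbours Csf3r with S100a8 and Cd209a, Foxp3 and Cd4, and Ncr1 and Cd8b1 had overlapping intervals. At least 1 Cdkn1a UMI was seen in 73.0% of the 241 PBS C1qa cells [67.0 to 78.5] and in 3.31% of the 1388 PBS Cd79a cells [2.44 to 4.40]. These gates had medians of 7199 and 2827 UMIs per cell, and after thinning every cell to 1000 UMIs the shares were 37.6% [31.3 to 44.2] and 0.949% [0.506 to 1.62]. Free RNA in the droplets can add UMIs to any cell, and the Cd79a share is the lowest of the 9 PBS gates.

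Btg2, an antiproliferative gene that is also an immediate early gene, was at 3455 CPM in the Csf3r with S100a8 gate of PBS and at 3484 CPM in that of DT, and was seen in 96.2% of its cells in both. Its next gate was Cd209a at 638 and 740 CPM, and its lowest levels were 162 CPM in the PBS Foxp3 gate and 169 CPM in the DT Cd8b1 gate. Plk2 and Plk3, polo-like kinases induced early after stress, showed the same peak. Plk2 was at 172 and 189 CPM in the Csf3r with S100a8 gate of PBS and DT, and at 0.973 and 1.22 CPM in Ncr1, where 1 UMI was counted in each library. Plk3 was at 280 and 449 CPM in the Csf3r with S100a8 gate and at 4.85 and 3.79 CPM in Cd79a. Ccng1, cyclin G1, varied less, from 41.0 CPM in Cd79a to 127 CPM in Foxp3 in PBS and from 33.5 CPM in Cd79a to 140 CPM in Cd4 in DT.

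**Figure D2:**
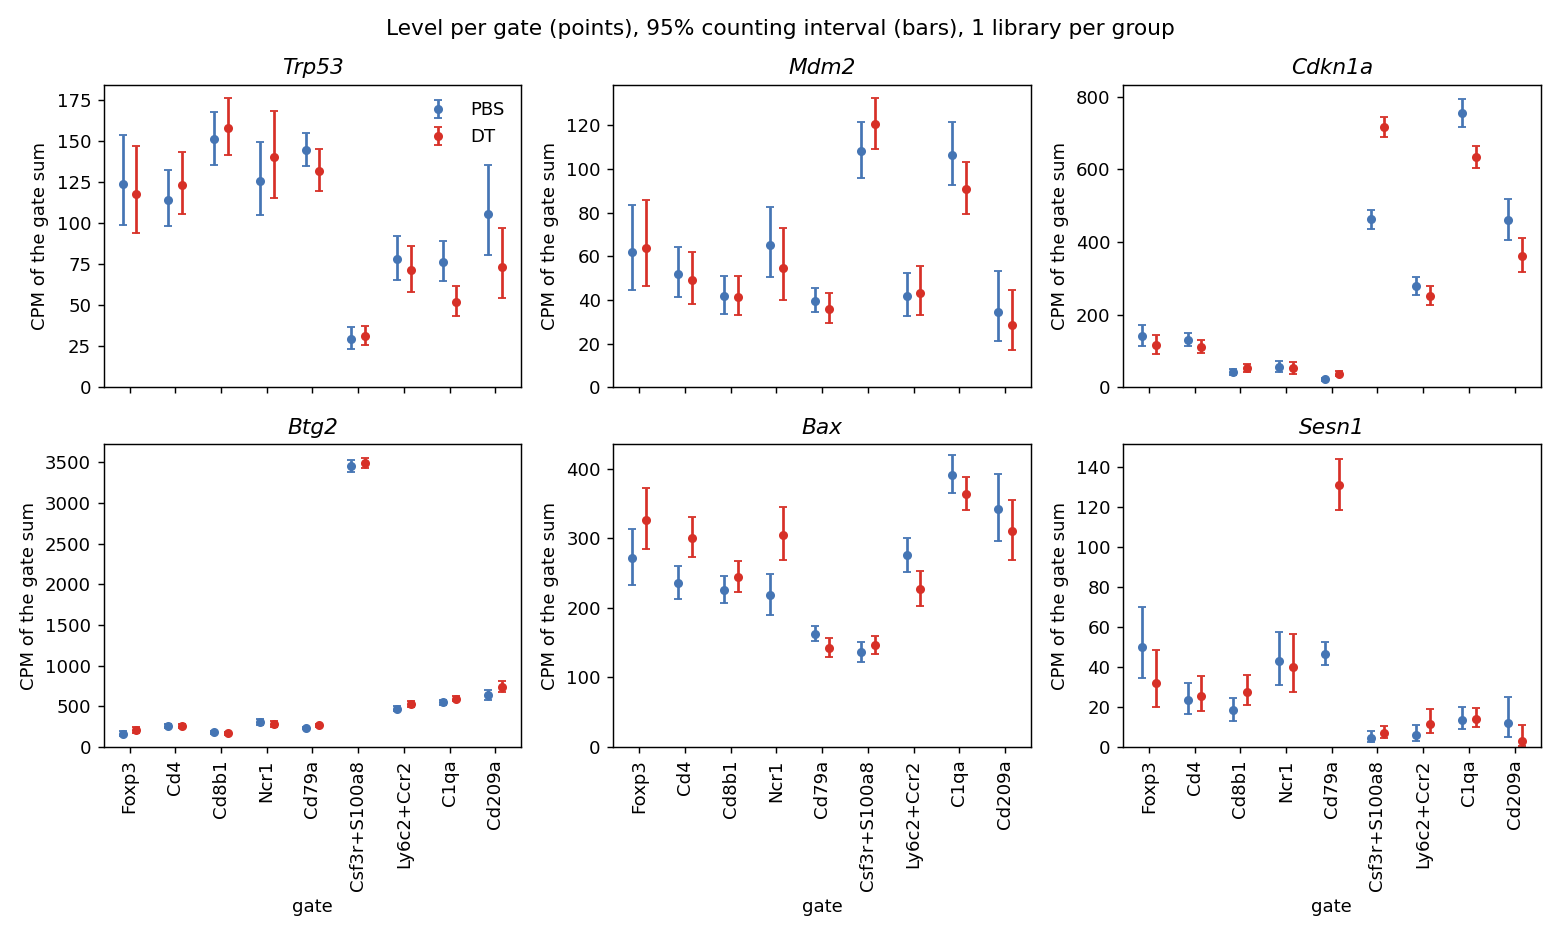
CPM of the gate sums (points) with 95% counting intervals (bars) for 6 members in PBS and DT, 1 library per group, each axis from 0. Trp53 is lowest and Btg2 highest in the Csf3r with S100a8 gate of both libraries, and Sesn1 reaches 131 CPM in the DT Cd79a gate against 46.4 CPM in PBS.

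The apoptosis genes did not share one pattern. Bbc3, which encodes PUMA, a BH3-only protein that triggers mitochondrial apoptosis, was highest in Ncr1 cells of PBS (65.2 CPM) and in Cd8b1 cells of DT (63.0 CPM), and lowest in Cd79a cells of both (14.3 and 10.7 CPM). Pmaip1, which encodes NOXA, another BH3-only protein, was highest in Cd209a cells (150 CPM in PBS, 147 CPM in DT), then in Csf3r with S100a8 cells (100.2 and 127 CPM), and lowest in Ncr1 cells (7.79 and 2.43 CPM). So the 2 genes had their extremes in different cells: the Ncr1 gate was the highest for Bbc3 and the lowest for Pmaip1 in PBS. Bax, whose protein forms pores in the mitochondrial outer membrane, spanned 137 to 391 CPM in PBS and 143 to 363 CPM in DT, with C1qa highest in both. Fas, the death receptor, was at 116 and 120 CPM in Csf3r with S100a8 cells and at 6.90 and 4.49 CPM in Cd209a cells.

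Phlda3, which encodes an inhibitor of Akt signalling, was highest in C1qa cells of PBS (61.0 CPM) and in Cd4 cells of DT (53.4 CPM), and lowest in Cd79a cells (4.85 and 7.58 CPM). Trp53inp1, a p53-induced nuclear protein, was highest in Foxp3 cells of PBS (125.3 CPM) and in Csf3r with S100a8 cells of DT (152 CPM), and lowest in Cd209a cells (8.62 and 4.49 CPM). Ei24, an endoplasmic reticulum protein, was highest in Foxp3 cells of both libraries (82.5 and 82.9 CPM), as was Aen, an apoptosis-enhancing nuclease (14.7 and 11.6 CPM). Aen reached 50 UMIs in the Cd79a gate only, so its first place rests on fewer UMIs than that. Cd8b1 was the next gate for Aen in both libraries. Perp, a membrane protein of desmosomes and apoptosis, was highest in Cd4 cells (12.3 and 14.96 CPM). In Cd209a cells it had 0 UMIs; taking 3 UMIs as the limit that a count of 0 allows gives 5.17 CPM in PBS and 4.49 CPM in DT. Tnfrsf10b, the TRAIL receptor, was highest in Cd8b1 cells, at 6.53 CPM [3.65 to 10.8] in PBS and 15.8 CPM [10.8 to 22.2] in DT.

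Of the repair genes, Xpc, which recognises distorted DNA for nucleotide excision repair, was a transcript of the Csf3r with S100a8 cells, at 104 (PBS) and 59.2 CPM (DT). Its other gates stood between 9.88 and 19.0 CPM in PBS and between 5.82 and 17.7 CPM in DT. Rrm2b, the p53-inducible subunit of ribonucleotide reductase that supplies nucleotides outside S phase, was highest in Cd79a cells (24.97 and 27.8 CPM) and lowest in Cd209a cells of PBS (3.45 CPM) and Ly6c2 with Ccr2 cells of DT (2.76 CPM). Ercc5, an endonuclease of excision repair, was highest in Foxp3 cells (25.1 and 32.0 CPM). Polk, a translesion polymerase, reached 35.0 CPM in Ncr1 cells of PBS and 24.7 CPM in Foxp3 cells of DT. Mgmt, which removes alkyl groups from guanine, reached 20.2 CPM in C1qa cells of PBS and 13.8 CPM in Cd8b1 cells of DT. In DT the next gates were close, with overlapping intervals: Cd4 at 24.2 CPM for Polk, and Ncr1 at 13.4 and Foxp3 at 13.1 CPM for Mgmt.

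Among the metabolic and stress targets, the sestrins Sesn1 and Sesn2, both inhibitors of the growth kinase complex mTORC1, had opposite distributions. Sesn1 was a lymphocyte transcript, at 18.3 to 50.1 CPM in the 5 lymphocyte gates of PBS and 25.6 to 131 CPM in those of DT, against 4.54 to 13.6 and 2.99 to 14.1 CPM in the other 4 gates. Sesn2 was highest in Csf3r with S100a8 cells (70.7 and 65.5 CPM), then in Cd209a cells (46.5 and 44.9 CPM), and was at 2.43 to 12.1 CPM in the lymphocyte gates of both libraries. Gdf15, a secreted stress cytokine, was highest in C1qa cells (27.2 and 39.2 CPM) and had 0 UMIs in the Foxp3, Ncr1 and Cd209a gates of both libraries. Its 26.5 CPM in the Cd4 gate of PBS came from 43 UMIs in 4 cells. Dcxr, a carbonyl reductase, was highest in Cd209a cells of PBS (53.4 CPM) and Ncr1 cells of DT (63.2 CPM), and lowest in Cd8b1 cells (9.57 and 10.8 CPM). Rps27l, a ribosomal protein induced by p53, was at 415 and 461 CPM in C1qa cells and at 105 and 83.4 CPM in Cd79a cells; its near-identical paralog Rps27 makes the split of reads between the 2 uncertain. Zmat3, an RNA-binding p53 target, was highest in Foxp3 cells (26.5 and 32.0 CPM) and lowest in Ly6c2 with Ccr2 cells of PBS (3.39 CPM) and Cd79a cells of DT (3.79 CPM). Pvt1, a long noncoding RNA beside Myc, was highest in Foxp3 cells of PBS (20.6 CPM) and Cd4 cells of DT (27.8 CPM), and lowest in Csf3r with S100a8 cells (3.03 and 1.15 CPM). Tigar, which lowers glycolytic flux, had at least 50 UMIs in 1 gate. It was highest at 9.73 CPM in Ncr1 cells of PBS, from 10 UMIs, and 11.6 CPM in Foxp3 cells of DT, from 8 UMIs. The next gates, Cd8b1 in PBS (9.14 CPM) and C1qa in DT (9.79 CPM), had overlapping intervals.

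The genes most like Cdkn1a over the 18 gate sums, by Pearson correlation of log2(CPM + 5) among 6488 genes with at least 50 UMIs in 5 or more gates, were Slc6a6 (0.95), AA467197 (0.95), Atp6v0e (0.94), Slc15a3 (0.94) and Mvp (0.94). The sums share 2 libraries and are given as a description. Of the members, Pmaip1 was nearest to Cdkn1a (0.85, rank 138), while Sesn1 (-0.77) and Trp53 (-0.82, rank 6285) ran the other way.

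The comparison of DT with PBS set leukocytes of irradiated lungs depleted of club cells beside those of irradiated control lungs. A member was compared in a gate when it had at least 50 UMIs there over both libraries, and a pair of member and gate counted as higher or lower when its log2 ratio, with 5 CPM added to both levels, was past 1.5-fold (0.58). Of 297 pairs 173 could be compared, over 30 members, 6 of them in all 9 gates. The remaining pairs are given as levels only. A total of 15 pairs of 173 (8.67%) were higher in DT and 5 (2.89%) were lower. Among all genes in the same gates, 59741 pairs, the shares were 3.43% and 2.66%. The median log2 ratio was 0.07 over the member pairs and 0.03 over all gene pairs. The 20 pairs came from 13 members, and 18 had a counting interval of the ratio that did not include 1.

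Gate by gate, the members past 1.5-fold stood as follows beside all genes. In Foxp3 cells 1 of 13 members was higher (4.98% of all genes were) and 1 was lower (3.64%). In Cd4 cells 4 of 22 were higher (4.34%) and 0 lower (3.12%), the largest number of any gate. In Cd8b1 cells 2 of 24 were higher (2.48%) and 0 lower (2.1%). Neither direction held any of the 15 members compared in Ncr1 cells (3.05% and 3.57%). In Cd79a cells 3 of 26 were higher (4.07%) and 0 lower (1.46%). The Csf3r with S100a8 cells had 3 of 22 higher (3.05%) and 2 lower (2.84%), the only gate with more than 1 in each direction. In Ly6c2 with Ccr2 cells 2 of 15 were higher (3.47%) and 0 lower (2.89%). Of 27 members compared in C1qa cells 0 were higher (2.35%) and 1 was lower (1.5%), and of 9 in Cd209a cells 0 were higher (3.82%) and 1 was lower (5.32%). The members' median log2 ratio was furthest from that of all genes in Cd4 cells, 0.14 against 0.05, and in Ly6c2 with Ccr2 cells, -0.10 against -0.01.

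**Figure D3:**
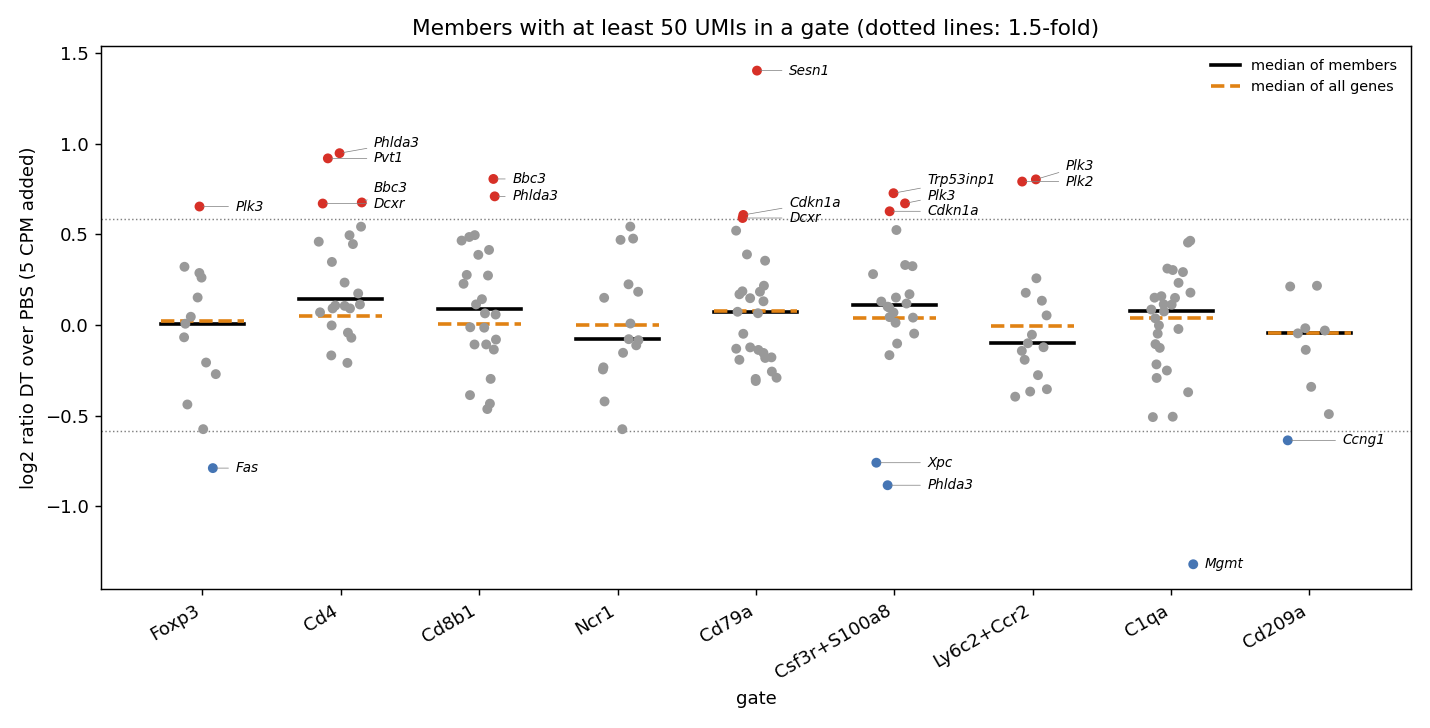
Log2 ratio of DT over PBS (5 CPM added) of every member with at least 50 UMIs in a gate, 1 point per member, with the members past 1.5-fold (dotted lines) named. Solid bars are the medians of the members and dashed bars those of all genes; most members lie between the dotted lines and Sesn1 in Cd79a cells, at 1.40, lies farthest above.

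p53 and its regulators were past 1.5-fold in 0 of 27 pairs. The counts of this and the following roles stand beside 3.43% higher and 2.66% lower among all gene pairs. Trp53 in C1qa cells, 76.2 and 52.1 CPM, had a ratio of 0.684 [0.537 to 0.869], within 1.5-fold but with an interval below 1. Ppm1d in Cd4 cells, 16.05 and 25.6 CPM, had a ratio of 1.60 [0.938 to 2.76] that came within the limit once 5 CPM were added. Mdm2 had ratios from 0.839 to 1.12 in the 8 gates where it was compared, and each of these intervals included 1. The highest of them was that of Csf3r with S100a8 cells, 1.12 [0.957 to 1.30].

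Cell cycle arrest genes gave 6 higher pairs and 1 lower pair of 37. Cdkn1a was higher in Csf3r with S100a8 cells, 462 CPM in PBS and 716 CPM in DT, a ratio of 1.55 [1.45 to 1.66]. The share of these cells with a Cdkn1a UMI was 31.4% [28.2 to 34.7] and 35.2% [32.5 to 38.0], and 21.2% [18.4 to 24.3] and 25.9% [23.4 to 28.6] after thinning. The difference was not seen in male-called cells, where Cdkn1a was at 586 CPM in 262 PBS cells and 611 CPM in 213 DT cells. In female-called cells it was at 97.9 CPM in 8 PBS cells, from 4 UMIs, and 873 CPM in 92 DT cells. The second Cdkn1a pair was the Cd79a gate, 22.4 and 36.7 CPM, a ratio of 1.64 [1.26 to 2.13]. Of its 116 DT UMIs 35 came from 1 cell, and without the cell richest in Cdkn1a in each library the log2 ratio was 0.39 in place of 0.61. The share of Cd79a cells with a Cdkn1a UMI was 3.31% [2.44 to 4.40] in PBS and 2.44% [1.60 to 3.56] in DT. In C1qa cells, where its PBS level was highest, the ratio was 0.839 [0.782 to 0.901], and in Cd209a cells 0.787 [0.659 to 0.940], neither of them past 1.5-fold. In male-called cells of these gates it was lower past 1.5-fold, at 779 and 416 CPM in C1qa and 578 and 260 CPM in Cd209a cells. Male-called Foxp3 (a log2 ratio of -1.40) and Cd8b1 cells (-0.83) were also lower. Their DT values came from 5 UMIs in 12 cells and 7 UMIs in 46 cells. Female-called cells of both gates went the other way. In Foxp3 they had 57.9 CPM, from 2 UMIs, and 79.5 CPM. In Cd8b1 they had 0 UMIs in 25 PBS cells and 71.7 CPM in 164 DT cells. Female-called cells had 787 and 715 CPM in the C1qa gate, and 275 CPM from 9 UMIs of 5 PBS cells and 494 CPM in 26 DT cells in the Cd209a gate. In Cd79a cells both sexes were higher in DT, at 27.1 and 61.6 CPM in male-called and 23.7 and 49.2 CPM in female-called cells.

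Plk3 was higher in DT in 3 gates. In Csf3r with S100a8 cells it was at 280 and 449 CPM, a ratio of 1.60 [1.47 to 1.75], and in male-called cells of that gate at 249 and 584 CPM. In female-called cells it was at 367 CPM in 8 PBS cells and 226 CPM in 92 DT cells. In Ly6c2 with Ccr2 cells it was at 18.1 and 35.2 CPM, a ratio of 1.95 [1.23 to 3.14], from 32 and 51 UMIs. Male-called cells of that gate went the other way, with 17.99 CPM from 15 UMIs and 4.35 CPM from 1 UMI, and female-called cells had 7.79 CPM from 1 UMI and 35.2 CPM from 24. In Foxp3 cells it was at 32.4 and 53.8 CPM, but the interval of that ratio, 0.954 to 2.95, included 1. Male-called Foxp3 cells had 26.2 and 22.9 CPM, from 12 and 2 UMIs, and female-called ones 0 UMIs in 6 PBS cells and 52.2 CPM in 76 DT cells. Plk2 was higher in Ly6c2 with Ccr2 cells, at 21.4 and 40.7 CPM, a ratio of 1.90 [1.24 to 2.94]. Its log2 ratio of 0.79 was 0.09 when cells passing several gates were kept or when 2 UMIs of each gate gene were asked for. Male-called cells had 16.8 and 8.71 CPM of Plk2 from 14 and 2 UMIs, and female-called cells 0 UMIs in 21 PBS cells and 61.6 CPM in 98 DT cells.

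In the same Ly6c2 with Ccr2 gate, 7 of 16 immediate early and dissociation genes were higher (3.47% of all genes were) and 0 lower (2.89%). The median log2 ratio of the 16 was 0.48, and Plk2 and Plk3 are 2 of the 7. Egr1 was at 29.9 and 95.3 CPM and Dusp1 at 561 and 1015 CPM there. In Foxp3 cells the same list had 6 higher (4.98% of all genes) and 1 lower (3.64%) of 12. In Csf3r with S100a8 cells it had 2 higher (3.05%), namely Plk3 and Ier3, and 0 lower (2.84%) of 16. The part of this list in the Plk2 and Plk3 values was not tested. Btg2, the list's other member gene, was past 1.5-fold in none of its 9 gates, with ratios from 0.924 to 1.26. The single lower pair of this role was Ccng1 in Cd209a cells, 58.6 and 35.9 CPM from 34 and 24 UMIs, with an interval of 0.348 to 1.06 that included 1. It was at 48.6 and 20.95 CPM in male-called and 91.5 and 56.0 CPM in female-called cells, with at most 17 UMIs in each. Ccng1 in Cd4 cells, 98.2 and 140 CPM, and in Ncr1 cells, 75.9 and 107 CPM, stayed within 1.5-fold with ratios of 1.43 [1.15 to 1.77] and 1.41 [1.03 to 1.94].

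**Figure D4:**
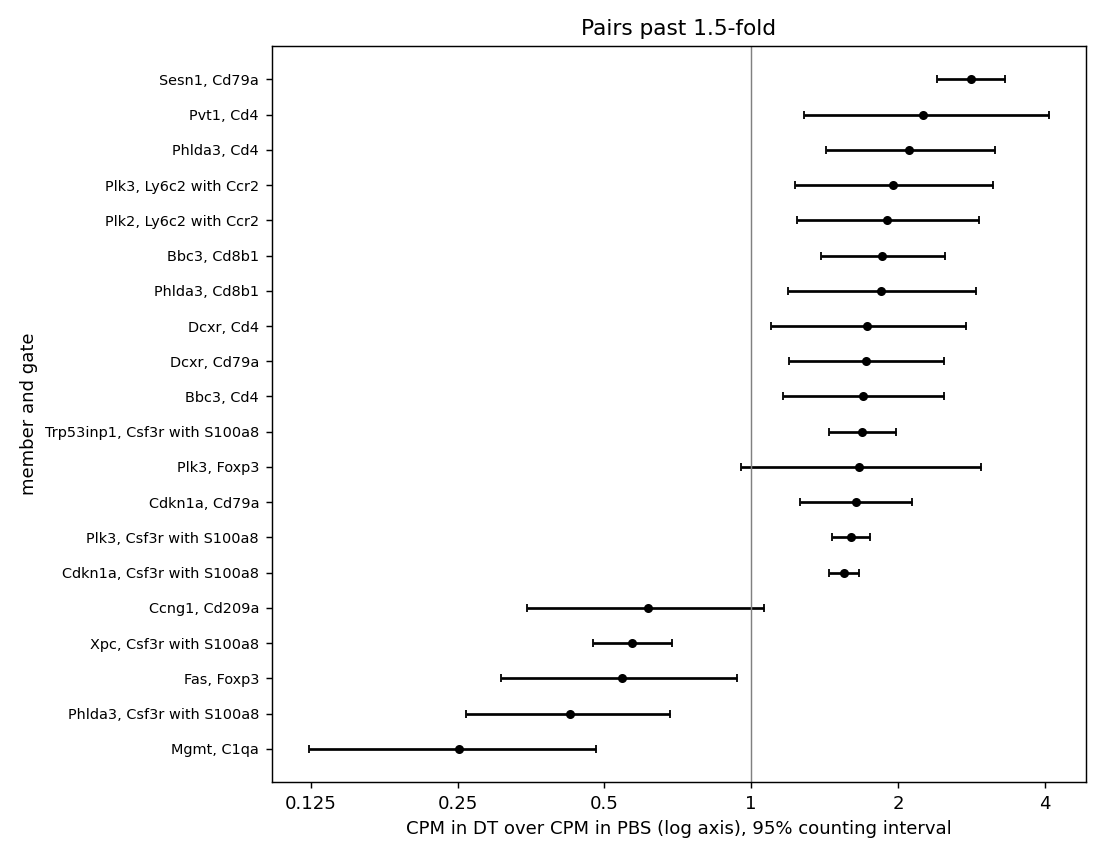
Ratio of CPM in DT to CPM in PBS for the 20 pairs past 1.5-fold, with 95% counting intervals, on a log axis. Sesn1 in Cd79a cells has the highest ratio, 2.82, Mgmt in C1qa cells the lowest, 0.252, and the intervals of Plk3 in Foxp3 cells and Ccng1 in Cd209a cells cross 1.

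Apoptosis genes and death receptors gave 5 higher and 2 lower pairs of 53. Bbc3 was higher in both of the larger T cell gates. In Cd8b1 cells it was at 33.9 and 63.0 CPM, a ratio of 1.86 [1.39 to 2.49], and its UMIs were seen in 15.3% [11.8 to 19.5] and 26.6% [22.1 to 31.5] of cells; after thinning the shares were 4.18% [2.36 to 6.80] and 5.92% [3.70 to 8.90]. The Bbc3 levels in Cd8b1 cells were 31.0 and 70.7 CPM in male-called cells, from 44 and 17 UMIs. In female-called cells they were 18.1 CPM [2.19 to 65.5] in 25 PBS cells, from 2 UMIs, and 59.7 CPM in 164 DT cells. In Cd4 cells Bbc3 was at 30.2 and 51.3 CPM, a ratio of 1.70 [1.16 to 2.49]. There the male-called cells had 25.7 and 84.6 CPM, from 25 and 11 UMIs. The 13 female-called PBS cells had 75.7 CPM from 5 UMIs, against 35.6 CPM in 155 DT cells. In the other T cell gate, Foxp3, Bbc3 was at 33.9 and 16.01 CPM, but with 34 UMIs in all it was not compared.

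Phlda3 was higher in the same 2 T cell gates and lower in another. It was at 25.3 and 53.4 CPM in Cd4 cells, a ratio of 2.11 [1.42 to 3.17], and at 15.2 and 28.1 CPM in Cd8b1 cells, a ratio of 1.84 [1.19 to 2.89]. In Csf3r with S100a8 cells it was at 19.7 and 8.37 CPM, a ratio of 0.426 [0.261 to 0.683]. Male-called cells there had 19.7 and 4.42 CPM, from 23 and 3 UMIs. Female-called cells had 0 UMIs in 8 PBS cells and 32.6 CPM, from 17 UMIs, in 92 DT cells. The Phlda3 levels of the whole gates rest on 29 to 75 UMIs per library. Without cells holding at least 2 UMIs of mitotic genes, the Cd4 log2 ratio was 0.26 in place of 0.95. In the Cd4 gate 5 of 8 mitosis genes were lower (3.12% of all genes) and 0 higher (4.34%). In Cd4 cells the male-called had 14.4 and 84.6 CPM, from 14 and 11 UMIs, and the female-called 75.7 and 59.7 CPM, on 13 PBS cells. The Cd8b1 difference was not seen in male-called cells, which had 17.6 CPM in 191 PBS cells and 8.32 CPM, from 2 UMIs, in 46 DT cells. Female-called cells had 0 UMIs in 25 PBS cells and 37.5 CPM in 164 DT cells.

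Trp53inp1 was higher in Csf3r with S100a8 cells, at 89.6 and 152 CPM, a ratio of 1.69 [1.45 to 1.98], and was at 74.5 and 184 CPM in the male-called cells of that gate. The 8 female-called PBS cells had 147 CPM from 6 UMIs, against 55.6 CPM in 92 DT cells. In Cd79a cells Trp53inp1 was at 50.5 and 74.6 CPM, a ratio of 1.48 [1.23 to 1.76] just within 1.5-fold. Fas was lower in Foxp3 cells, at 59.0 and 32.0 CPM from 40 and 22 UMIs, a ratio of 0.543 [0.307 to 0.936]. It was at 61.2 and 11.5 CPM in male-called Foxp3 cells and at 28.9 and 27.2 CPM in female-called ones, with 1 UMI in the male-called DT and in the female-called PBS cells. Bax was past 1.5-fold in none of its 9 gates, with ratios from 0.822 in Ly6c2 with Ccr2 cells to 1.40 [1.16 to 1.68] in Ncr1 cells. Pmaip1 was not past it in any gate either, and had a ratio of 1.26 [1.08 to 1.48] in Csf3r with S100a8 cells.

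Repair genes gave 0 higher and 2 lower pairs of 21. Polk in Csf3r with S100a8 cells, 8.32 and 14.1 CPM, had a ratio of 1.70 [1.01 to 2.95] and came within the limit only through the 5 CPM added. Xpc was lower in the Csf3r with S100a8 cells, its main population, at 104 (PBS) and 59.2 CPM (DT), a ratio of 0.571 [0.474 to 0.687]. Male-called cells there had 89.0 and 64.8 CPM, and female-called cells 171 CPM in 8 PBS cells and 32.6 CPM in 92 DT cells. Mgmt was lower in C1qa cells, at 20.2 and 5.09 CPM, a ratio of 0.252 [0.124 to 0.482], from 40 and 13 UMIs. Mgmt UMIs were seen in 13.3% [9.26 to 18.2] of the 241 PBS cells and 3.79% [1.97 to 6.52] of the 317 DT cells. Only 22 of the 7943 genes compared in C1qa cells had a lower ratio. Levels were 14.1 and 7.21 CPM in male-called cells, from 15 and 3 UMIs. In female-called cells they were 25.05 and 5.83 CPM, from 5 and 9 UMIs. When cells that pass several gates were kept, its log2 ratio was -0.59 in place of -1.32.

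The metabolic and stress targets gave 4 higher and 0 lower pairs of 35. Sesn1 in Cd79a cells had the largest ratio of all member pairs: 46.4 CPM in PBS and 131 CPM in DT, a ratio of 2.82 [2.40 to 3.31] from 249 and 414 UMIs. Its log2 ratio of 1.40 was exceeded by 23 of the 9503 genes compared in this gate. The share of cells with a Sesn1 UMI was 15.6% [13.8 to 17.7] and 30.6% [27.9 to 33.5], and after thinning 5.18% [4.07 to 6.49] and 12.4% [10.5 to 14.5], and no cell held more than 4. The levels were 41.9 and 90.9 CPM in male-called and 37.9 and 115 CPM in female-called cells. In the other 4 lymphocyte gates Sesn1 was within 1.5-fold once 5 CPM were added, with ratios from 0.639 [0.356 to 1.12] in Foxp3 cells to 1.51 [0.993 to 2.31] in Cd8b1 cells. Other lists also differed in the Cd79a gate: 7 of 9 mitosis genes were lower (1.46% of all genes) and 0 higher (4.07%). Their median log2 ratio was -0.82, and Top2a was at 34.3 and 17.1 CPM. Alveolar RNA was far higher in DT in this gate, with Sftpc at 6.15 and 1058 CPM, Sftpa1 at 2.42 and 298 CPM and Sftpb at 0.932 and 75.2 CPM, while Scgb1a1 was at 54.0 and 0.632 CPM. The part of this RNA in the Sesn1 value was not tested. Without cells holding at least 2 mitotic UMIs the Sesn1 log2 ratio was 1.37. The annotation (GENCODE, GRCm38) places Sesn1 on chromosome 10, 41809935 to 41908424, plus strand, with the noncoding gene 9930024M15Rik on the same strand overlapping it.

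Dcxr was higher in Cd4 cells, at 20.99 and 36.3 CPM, a ratio of 1.73 [1.10 to 2.75], and in Cd79a cells, at 11.6 and 19.9 CPM, a ratio of 1.72 [1.19 to 2.49]. The Cd79a pair had a log2 ratio of 0.59, just past 1.5-fold, and of -0.21 after thinning. Male-called cells had 25.7 and 46.1 CPM in the Cd4 gate, from 25 and 6 UMIs, and 13.6 and 14.7 CPM in the Cd79a gate. Female-called cells had 0 UMIs in 13 PBS cells and 43.6 CPM in DT in the Cd4 gate. In the Cd79a gate they had 7.91 and 28.9 CPM, from 5 and 34 UMIs. Pvt1 was higher in Cd4 cells, at 12.3 and 27.8 CPM, a ratio of 2.25 [1.28 to 4.07], from 20 and 39 UMIs. Male-called cells had 13.4 and 30.7 CPM of Pvt1, the latter from 4 UMIs, and female-called cells 0 UMIs in 13 PBS cells and 26.4 CPM in 155 DT cells. Rps27l, Sesn2, Tigar, Gdf15 and Zmat3 were past 1.5-fold in none of the gates where they were compared. Gdf15 in C1qa cells had 27.2 and 39.2 CPM, a ratio of 1.44 [1.02 to 2.04], and single cells held 16 of the 54 PBS UMIs and 23 of the 100 DT UMIs.

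The Csf3r with S100a8 cells were split by detection of Ccl3, a chemokine of activated neutrophils, which was seen in 23.4% of the PBS and 26.3% of the DT cells of this gate. Cdkn1a was at 806 and 1266 CPM in cells with Ccl3 and at 329 and 427 CPM in cells without it, a wider gap between the kinds of cell than between the libraries. Plk3 was at 215 and 453 CPM with Ccl3 and at 305 and 446 CPM without. Trp53inp1 showed 86.7 and 139 CPM with Ccl3 and 90.8 and 158 CPM without. Xpc was at 61.0 and 36.9 CPM with Ccl3 and at 120 and 70.9 CPM without, lower in DT in both. Club cell and alveolar RNA also differed in this gate: Scgb1a1 was at 63.5 (PBS) and 0.866 CPM (DT), and Sftpc at 1174 and 12.7 CPM. Scgb1a1 was lower in DT in all 9 gates, whereas Sftpc was lower here and higher in Cd79a cells. Over all gates 4 epithelial pairs were higher (3.43% of all gene pairs) and 10 lower (2.66%) of 17. The part of epithelial RNA in the members' values was not tested.

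**Figure D5:**
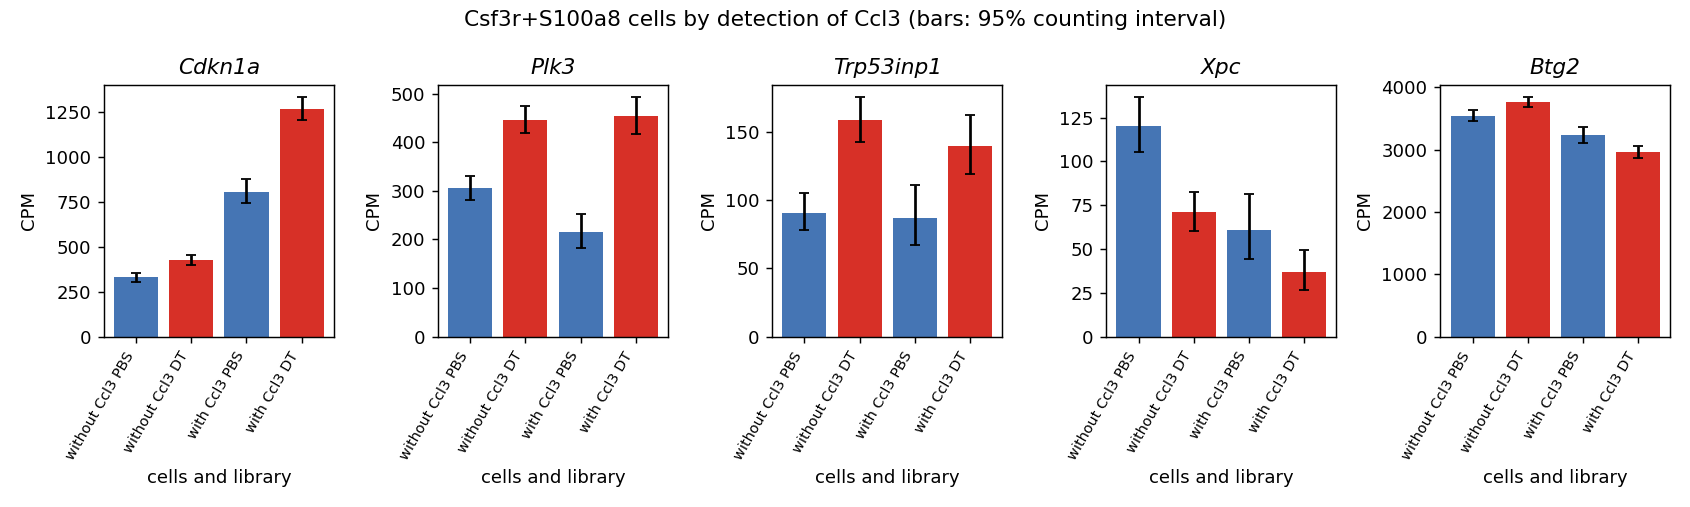
CPM in Csf3r with S100a8 cells of PBS and DT, split by detection of Ccl3, with 95% counting intervals and axes from 0. Cdkn1a is higher with Ccl3 (806 and 1266 CPM) than without (329 and 427 CPM), and Plk3 and Trp53inp1 are higher and Xpc lower in DT within both kinds of cell.

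Other genes of the damage response, taken from lists, were compared by the same rule. Among all gene pairs 3.43% were higher and 2.66% lower, and these shares stand beside the list counts of this and the next paragraph. Of 126 pairs of other p53 targets and regulators, 11 were higher and 6 lower. Ddit4, an mTORC1 inhibitor, was higher in Ly6c2 with Ccr2 cells (14.7 and 39.3 CPM), Ncr1 cells (41.8 and 81.5 CPM) and Cd209a cells (a ratio of 1.86 [1.18 to 2.99]). Gadd45b, a stress sensor, was higher in Ly6c2 with Ccr2 cells (54.7 and 113 CPM) and lower in Cd8b1 cells (57.9 and 23.6 CPM), Ncr1 cells (59.4 and 36.5 CPM) and Cd209a cells (77.6 and 49.4 CPM). The Cd209a ratio, 0.637 [0.394 to 1.02] from 45 and 33 UMIs, had an interval that included 1. In Cd79a cells 4 of 19 of these genes were higher (4.07% of all genes in that gate) and 0 lower (1.46%). Among the 4 were the DNA damage-inducible genes Gadd45a (11.4 and 20.2 CPM) and Gadd45g (24.0 and 43.0 CPM). Damage sensors and checkpoint kinases gave 2 higher and 3 lower pairs of 73, end joining and homologous recombination 0 and 2 of 31, and excision repair 3 and 1 of 94. Among the sensors H2afx, the histone marked at breaks, was lower in Cd79a cells (69.7 and 38.9 CPM). In that gate 7 of 9 mitosis genes were lower too, and their part in the H2afx value was not tested.

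Mitochondrial apoptosis genes gave 14 higher and 1 lower of 137 pairs. Bcl2, which blocks this pathway, was higher in Cd4 cells (235 and 413 CPM, a ratio of 1.76 [1.54 to 2.01]) and in Cd8b1 cells (405 and 677 CPM, a ratio of 1.67 [1.54 to 1.82]). Bbc3 and Phlda3 were higher in both of these gates too, while Bcl2 was also higher in Ly6c2 with Ccr2 cells (43.4 and 70.4 CPM). Bcl2l11, which encodes the BH3-only protein BIM, was higher in Cd8b1, Ncr1, Cd79a and Cd209a cells, with ratios from 1.58 to 2.06. Integrated stress response genes, a list that shares Sesn2, Gdf15 and Tnfrsf10b with the members, gave 3 higher and 3 lower pairs of 42. The 3 higher pairs were all in Ly6c2 with Ccr2 cells, and Atf3 there was at 192 and 298 CPM.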

How the data were processed

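The authors deposited, for each cell and 16184 genes, log2 values of CPM with 1 added. Per the submitters' processing notes Partek, Seurat, STAR and mm10 were used; no source used here gives their roles or versions, or the annotation release. The log was undone and each cell divided by its smallest step; 100% of values were whole within 1% and were used as UMIs. Cells with at least 200 genes and 500 UMIs were kept (5651 PBS, 5896 DT). Cells passing gates of several lineages (654 and 639) were left out, which also served against doublets, as no caller was run. Of the cells passing Ly6c2 with Ccr2 this took 55.0% in PBS and 54.8% in DT. It took 55.5% and 49.0% in C1qa, 51.8% and 39.5% in Cd209a, and 11.1% and 9.97% in Cd79a. The other gates lost 19.8% to 31.0%. The levels of a gate are those of the cells left in it. A further 1223 and 1386 cells passed none. UMIs were summed per gate and scaled to CPM. Members with at least 50 UMIs in a gate were compared by log2 ratio with 5 CPM added. The call at 1.5-fold is a size rule, not a test. The members and lists were chosen with earlier results of these data known. Named were all members, with gate values for those past 1.5-fold or with a 4-fold spread over gates, and up to 5 genes per direction of each other list. Alternatives covered gating, cell filters, depth, scaling, added CPM, UMI minimum, free RNA and sex-called cells. Steps were tested on simulated data (Python 3.11.15, numpy 2.4.6, scipy 1.17.1, pandas 2.3.3). Positions are GENCODE, GRCm38. Where genes overlap, such as Cdkn1a with the opposite-strand gene AC167363.2, the counting of reads is not stated.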

Additional observations from a re-analysis of the deposited data

Results flagged for a closer look

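Phlda3 was the only member past 1.5-fold in both directions. Its DT over PBS log2 ratios ran from 0.95 in Cd4 cells to -0.88 in Csf3r with S100a8 cells, a span of 1.83. Each library gave 29 to 75 UMIs in these gates. The difference between the populations was not tested.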

How the results depend on the processing

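With 173 pairs compared, 15 were higher and 5 lower, with a median log2 ratio of 0.07, and 19 of 32 members had the same highest gate in both libraries. Over the alternatives 49 of these counts and medians stayed close and 16 moved. Lower pairs numbered 3 without the 5% of cells richest in UMIs, 8 with 1 CPM added, 3 with 20 CPM, 10 from 20 UMIs per gene, 1 from 200 UMIs, and 8 with the mean CPM of single cells. Higher pairs numbered 6 with 20 CPM added and 6 from 200 UMIs. Thinning to 1000 UMIs left 53 pairs, with 4 higher, a median of -0.0120 and 11 of 28 members with the same highest gate. Male-called cells gave 87 pairs, 10 of them lower, a median of -0.0859 and 12 of 30 members with the same highest gate. Female-called cells gave 73 pairs, 26 of them higher, and a median of 0.27. The female-called PBS gates held 5 (Cd209a) to 122 cells (Cd79a), and the male-called DT gates 12 (Foxp3) to 228 (Cd79a). The shares over all genes in these settings are not given here, so such counts describe the members only. Of the single log2 ratios 369 stayed close, 74 moved and 7 reversed. The 7 all belong to pairs past 1.5-fold in the main comparison. Cdkn1a ratios within 1.5-fold changed sign as well without being counted as reversed. In Foxp3 cells Cdkn1a went from -0.27 to 0.60 when cells passing several gates were kept. In Cd209a cells it went from -0.34 to 0.84 in female-called cells. Reversed in female-called cells were Plk3 (-0.69) and Trp53inp1 (-1.32) in Csf3r with S100a8 cells, on 8 PBS cells, and Bbc3 (-0.99) and Phlda3 (-0.32) in Cd4 cells, on 13. Phlda3 in Cd8b1 cells was -0.76 in male-called cells, Dcxr in Cd79a cells -0.21 after thinning, and Cdkn1a in Cd79a cells -0.0470 when the means of the deposited log2 values were subtracted. That last scale gave no count past 1.5-fold and no median. Leaving out the cell richest in the gene, chosen after seeing the data, took Cdkn1a and Dcxr in Cd79a cells below 1.5-fold (0.39 and 0.45). Beyond these constructions the causes were not tested. Sesn1 in Cd79a cells was past 1.5-fold in each of the 17 settings run, from 1.03 to 1.48. No paired analysis was possible because each group is 1 library.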
